A study of Homo sapiens with 15 samples.

Results

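Ribosomal protein genes encode the proteins of the cytoplasmic ribosome, and they are described here in MDA-MB-231 cells after knockdown of YAP, TAZ or both. Members were chosen by symbol alone, as RPL or RPS with digits and at most an X, A or L after them, with the stalk proteins RPLP0, RPLP1 and RPLP2 and with RPSA. The rule took 80 of the 18858 genes of the deposited table and left out pseudogenes. Of the 80, 43 belong to the large subunit, 31 to the small subunit and 3 to the stalk, and 3 are paralogues with an L suffix (RPL3L, RPL39L and RPS27L). In 79 of them the mean over all libraries reached 20 normalized counts (counts scaled by the TMM library size), and RPL3L lay below that level. Each gene's position was read from GENCODE release 44 on GRCh38.

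MDA-MB-231 is an established human breast cancer cell line, and the study knocked down the transcriptional co-activators YAP (gene YAP1) and TAZ (gene WWTR1) to learn how they bear on invadopodia, the matrix-degrading protrusions of invasive cells. Cells were left without siRNA (Control) or were transfected with a control pool (siControl), a pool against YAP (siYAP), a pool against TAZ (siTAZ) or both pools (siYAP+TAZ). Knockdown lasted 48 h, and cells of every group then spent 5 to 6 h on gelatin-coated plates. There were 3 libraries in a group. Libraries 16, 21 and 26 were Control, libraries 17, 22 and 27 were siControl, libraries 18, 23 and 28 were siYAP, libraries 19, 24 and 29 were siTAZ, and libraries 20, 25 and 30 were siYAP+TAZ. The knockdowns were transient, and the co-knockdown received more siRNA in total, so the larger amount and the combined loss cannot be told apart. The study's supplementary legend for the RNA sequencing gives 3 independent sets of experiments. Which libraries came from the same set is not given in the sources used here, and p-values measure the spread between these libraries.

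Total counts lay between 18696737 and 30107312 per library. WWTR1 fell in siTAZ (log2 fold change -1.74 ± 0.31 (SE), adjusted p = 0.0187), from 1808 ± 211 normalized counts in siControl to 534 ± 287 (mean ± SD, n = 3). YAP1 was at 4322 ± 115 in siControl, 1513 ± 1091 in siYAP and 2079 ± 246 in siYAP+TAZ, and neither difference passed the test (adjusted p = 0.0992 and 0.0723). WWTR1 in siYAP+TAZ was at 1179.9 ± 90.2 (adjusted p = 0.199). By library, YAP1 was at 4038, 4488 and 4512 in Control, 4431, 4333 and 4202 in siControl, 1013, 2764 and 761 in siYAP, 4996, 4390.1 and 4393 in siTAZ and 2240.2, 2202 and 1796 in siYAP+TAZ. For WWTR1 these values were 1475, 1557 and 1830.2 in Control, 1995, 1850.2 and 1579 in siControl, 1956, 1423 and 2001 in siYAP, 828, 254 and 521 in siTAZ and 1133, 1123 and 1284 in siYAP+TAZ. Each targeted mRNA was lower in every library meant to lose it than in any siControl library. The study itself reports efficient knockdown of YAP and TAZ in this line, by RT-qPCR and by western blot. It also lists YAP1 among the molecules changed in both its RNA and its protein data. Of the siYAP libraries, library 23 kept the most YAP1, and both mRNAs remained well above 0 in siYAP+TAZ. Of the markers of the line, VIM and CD44 were abundant, with siControl means of 28898 and 20818 normalized counts. Among the markers that should be low, EPCAM was at 342 and PGR at 1.26, and the leukocyte marker PTPRC was at 3.34.

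A ribosome joins a small subunit, which reads the mRNA, to a large subunit, which makes the peptide bond, and most of its proteins are needed in equal numbers. Many of their mRNAs begin with a C followed by a run of pyrimidines, the 5′ terminal oligopyrimidine (TOP) motif, through which mTORC1 and the RNA-binding protein LARP1 control their translation and stability together. YAP and TAZ bind DNA through TEAD factors and are known for their part in cell growth. Ribosomal protein genes have many processed pseudogenes, so short reads of their mRNAs can match more than one place in the genome.

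After co-knockdown of YAP and TAZ, nearly the whole family had estimates slightly below 0, and part of it passed the test. With edgeR, 35 of the 80 members were called lower in siYAP+TAZ than in siControl and 0 were called higher, at an adjusted p of 0.05 or less. Over all 18858 genes, 8.39% were called lower and 9.97% higher. The median log2 fold change of the members was -0.28 (the level fell by 17.4%), beside -0.0048 for all genes. Estimates were negative in 79 members, and among the 79 genes with enough counts the one nearest to 0 was -0.0031 in RPL39L. None of the 35 called members reached the absolute log2 fold change of 1 that the methods add to the adjusted p, and 3.46% of all genes passed both limits. Every siYAP+TAZ library lay below every siControl library in 59 members, against 18.2% of all genes. Among 422 other coding genes above the median level of the members, a group chosen after the data had been seen, 180 lay so and 78 lay above. In RPL14, RPL24, RPL8, RPS13, RPS3 and RPLP0, the siYAP+TAZ libraries lay below all 12 others. This also held in further members, RPL10A, RPL4, RPS16 and RPS9 among them. The share of all genes that lay so is not given here. The count of calls depended on single libraries. It was 14 without siYAP+TAZ library 25, 17 without siControl library 27 and 22 without siControl library 17. The share of all genes called in these fits is not given here, so whether calls fell alike over the whole table was not compared. The median stayed between -0.30 and -0.22 in all 6 fits that left out 1 library. With Control as the reference, 21 members were called lower, where 9.07% of all genes were, and the median was -0.22. When libraries 16 to 20, 21 to 25 and 26 to 30 were each taken as a block, a grouping that the labels do not give, 61 members and 14% of all genes were called lower. DESeq2 called 35 members and 8.74% of all genes lower.

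**Figure D1:**
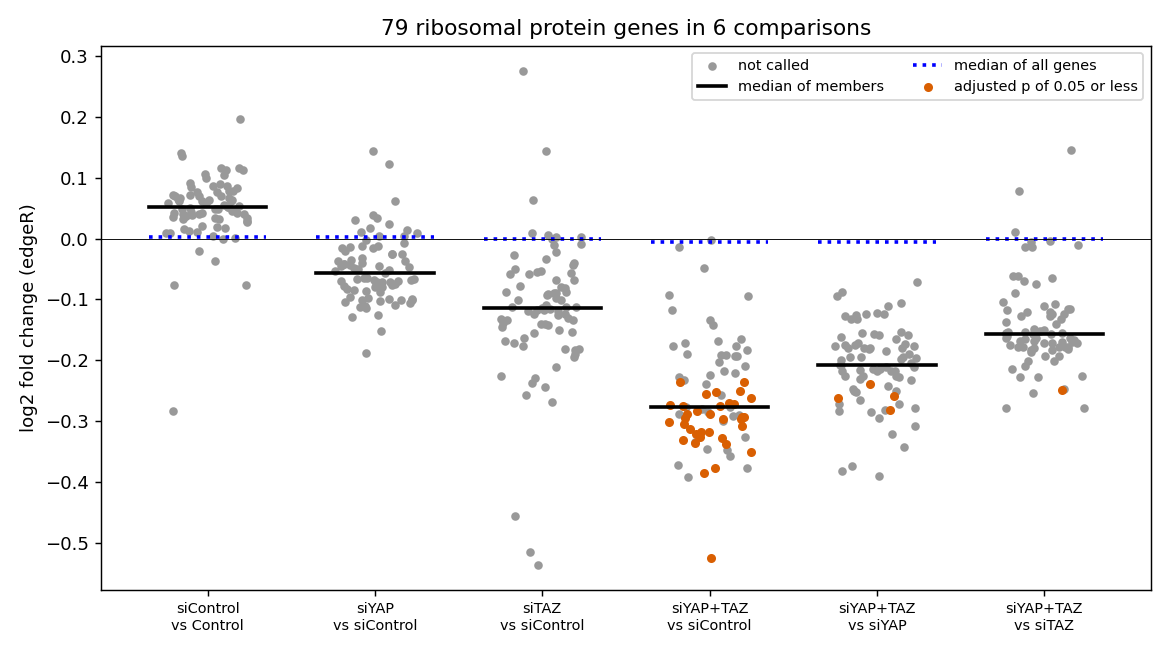
Log2 fold changes from edgeR (vertical axis) of the 79 members above 20 normalized counts, in 6 comparisons (horizontal axis). Orange points passed an adjusted p of 0.05, black lines are the members' medians and blue dotted lines the medians of all genes. In siYAP+TAZ against siControl all 79 points are below 0 and 35 are orange, while siYAP and siTAZ have none in orange.

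Several genes of the small subunit fell in siYAP+TAZ. RPS13 (chr11:17074388-17077715, minus strand), whose product lies at the subunit interface, was at 4985, 5009 and 5419 normalized counts in siControl (in the order of the library numbers, as throughout) and at 4049, 3596 and 4215 in siYAP+TAZ. It was at 4343, 4803 and 5109 in Control, 4595, 4709.6 and 5019.8 in siYAP and 4251, 4331 and 4731 in siTAZ. All siYAP+TAZ libraries were below the lowest library of every other group (log2 fold change -0.38 ± 0.079 (SE), adjusted p = 0.00235). RPS18, a protein of the head of the subunit, also fell (log2 fold change -0.35 ± 0.081 (SE), adjusted p = 0.00512), as did RPS3, at the mRNA entry channel, and RPS9, which is known for its part in decoding fidelity (log2 fold changes -0.31 and -0.29). RPS13, RPS18, RPS3, RPS9 and RPS16 kept their calls in all 16 settings tried, which include those that leave out 1 library.

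RPS2, another protein of the mRNA entry channel, was the most abundant member per kilobase of its transcript. Its siControl libraries had 44669, 44304 and 49443 normalized counts and its siYAP+TAZ libraries 36304, 35839 and 38199. The groups did not overlap (log2 fold change -0.33 ± 0.10 (SE), adjusted p = 0.0294), but 77.7% of the 50-base stretches of RPS2 also occur elsewhere in the genome. Its call was lost without any 1 of libraries 17, 20, 22, 25 or 27, with adjusted p-values from 0.0506 to 0.115. RPS6, the protein that S6 kinases phosphorylate, was at 17223, 16356 and 17541 in siControl and at 13577, 13242 and 14776 in siYAP+TAZ (log2 fold change -0.30 ± 0.080 (SE), adjusted p = 0.0135). RPSA, which is also known as a laminin receptor, was at 13017, 12363 and 13467 and at 10816, 9956 and 11146 (log2 fold change -0.28 ± 0.080 (SE), adjusted p = 0.0184). Both genes had non-overlapping groups, and both calls were lost without siControl library 17 (adjusted p = 0.0508 for RPS6 and 0.0602 for RPSA) and without siYAP+TAZ library 25 (0.0682 and 0.0989). The RPS6 call was also lost without siYAP+TAZ library 20 (0.0537) and the RPSA call without siControl library 27 (0.0696). With Control as the reference, the calls of RPS2, RPS6 and RPSA were all lost (adjusted p = 0.0769, 0.0549 and 0.0630).

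In all, 16 of the 31 small subunit genes were called lower, with a median log2 fold change of -0.28. Several members at the other end of the range did not pass the test. RPS4X, the X-linked protein of the small subunit (chrX:72255679-72277248, minus strand), had 19618, 18055 and 20833 normalized counts in siControl and 19142, 18244 and 19197 in siYAP+TAZ. The siYAP+TAZ libraries lay within the siControl range (log2 fold change -0.048 ± 0.081 (SE), adjusted p = 0.746). RPS23, a protein of the decoding centre, was at 3132, 3252 and 3399 and at 3007, 3022 and 3140.2, with 1 siYAP+TAZ library above the lowest siControl library (log2 fold change -0.093, adjusted p = 0.411). RPS27, a zinc finger protein of the small subunit, was at -0.17 (adjusted p = 0.229), and RPS15 and RPS25 were at -0.19 and -0.22 (adjusted p = 0.266 and 0.117). RPS27 and RPS25 were called with the block by library numbers (adjusted p = 0.0487 and 0.00424).

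The estimates of RPS10 and RPS14 lay within the range of the called members (-0.53 to -0.24), and that of RPS12 lay just above it. All had wider errors or larger p-values. RPS10 was at 119, 142 and 226 normalized counts in siControl and 194, 92.4 and 87.2 in siYAP+TAZ, so library 20 lay above 2 of the 3 siControl libraries (log2 fold change -0.39 ± 0.29 (SE), adjusted p = 0.402). Its estimate depended on single libraries. Without library 20, RPS10 was called (log2 fold change -0.85, adjusted p = 0.0291), and without siControl library 27 the estimate was -0.085 (adjusted p = 0.887). In RPS10, 94.6% of the 50-base stretches occur elsewhere in the genome and 31.5% of the exonic bases are shared with a read-through gene. RPS14, a protein of the platform of the small subunit, had a log2 fold change of -0.29 ± 0.12 (adjusted p = 0.0985), and RPS12 one of -0.23 ± 0.087 (adjusted p = 0.0712). With the block by library numbers, both genes were called (adjusted p = 0.000231 for RPS14 and 0.00871 for RPS12), and RPS14 was also called with only the compared groups in the fit (adjusted p = 0.0494).

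In the large subunit, 18 of 43 genes were called lower, all 43 estimates were negative and the median was -0.28. The smallest adjusted p-value of the family belonged to RPL9 (chr4:39452587-39458931, minus strand), whose product sits at the base of the stalk. RPL9 was at 4808, 4873 and 4889.8 normalized counts in siControl and at 3897, 3474 and 3787 in siYAP+TAZ. In Control it was at 4827, 4614 and 4249 and in siYAP at 4406, 4486 and 4674. The siControl libraries lay close together and above the siYAP+TAZ libraries (log2 fold change -0.39 ± 0.074 (SE), adjusted p = 0.00125), though 89.6% of its 50-base stretches are found elsewhere in the genome. RPL14 (chr3:40457292-40468587, plus strand), a protein of the solvent-exposed face, was at 14502, 14150.0 and 14561 in siControl and at 11351, 11159 and 11923 in siYAP+TAZ. No library of any other group was as low as its siYAP+TAZ libraries (log2 fold change -0.33 ± 0.071 (SE), adjusted p = 0.00301), and 10.3% of its 50-base stretches occur elsewhere.

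RPL24, which forms a bridge between the subunits, was at 11476, 10960.0 and 11408 and at 8966, 8548 and 9269 (log2 fold change -0.34 ± 0.067 (SE), adjusted p = 0.00170). RPL10A, a protein of the L1 stalk, was at 16549.6, 16636 and 17959.8 and at 14091, 13324 and 13759 (log2 fold change -0.31 ± 0.065 (SE), adjusted p = 0.00222). For RPL8, close to the peptidyl transferase centre, the siControl values were 41081, 39414 and 41414 and the siYAP+TAZ values 34239, 32907 and 32198. These groups lay apart in all 3 genes, and RPL8 (log2 fold change -0.30 ± 0.067 (SE), adjusted p = 0.00440) has 3.23% of its 50-base stretches elsewhere in the genome. RPL9, RPL14, RPL24, RPL10A, RPL8, RPL4 and RPL18 kept their calls in all 16 settings.

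RPL5 and RPL11 form a particle with 5S rRNA and, outside the ribosome, bind MDM2, the ligase that degrades p53. RPL5 had 15054, 15140.4 and 16402 normalized counts in siControl and 12198, 12091 and 13725 in siYAP+TAZ and fell (log2 fold change -0.29 ± 0.080 (SE), adjusted p = 0.0142), with calls lost without libraries 20, 25 or 27 (adjusted p = 0.0644, 0.0708 and 0.0653). RPL11 had 8910.2, 9085 and 10330.0 and 7309, 7185 and 8705 and did not pass the test (log2 fold change -0.29 ± 0.13 (SE), adjusted p = 0.154). The groups of RPL11 did not overlap, and relative to its mean each was spread more widely than that of RPL5. RPL11 was called with only the compared groups in the fit (log2 fold change -0.28, adjusted p = 0.0440) and with the block by library numbers (-0.29, adjusted p = 0.00117). RPL3, which reaches into the peptidyl transferase centre, was at 21147, 21103 and 22692 and 17867, 17645 and 18858 (log2 fold change -0.26 ± 0.073 (SE), adjusted p = 0.0184), and its call was lost without libraries 20, 25 or 27 (adjusted p = 0.0637, 0.0752 and 0.0781).

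RPL10, which completes the large subunit late in its assembly, was at 23183, 22599.6 and 24749.5 in siControl and 21599.5, 20481 and 20061 in siYAP+TAZ, and did not pass (log2 fold change -0.18 ± 0.072 (SE), adjusted p = 0.0870), though it did with the block (adjusted p = 0.0262). RPL35, near the exit of the peptide tunnel, had a log2 fold change of -0.35 ± 0.12 (adjusted p = 0.0621) and was called with only the compared groups in the fit (adjusted p = 0.0248), with the block (adjusted p = 4.45e-05) and without siYAP+TAZ library 30 (adjusted p = 0.0269). RPL28 had the highest estimate among the large subunit genes, -0.12 (adjusted p = 0.432). RPL36A and RPL39 had few counts for their family, with siControl values of 91.0, 128 and 103 for RPL36A and 305, 306 and 461 for RPL39. Their siYAP+TAZ values were 90.4, 80.6 and 77.1 and 365, 206 and 257, and neither difference passed the test (log2 fold changes -0.38 ± 0.21 and -0.37 ± 0.19, adjusted p = 0.240 and 0.190). RPL36A was called with Control as the reference (log2 fold change -0.66, adjusted p = 0.0317), and RPL39 without siYAP+TAZ library 20 (log2 fold change -0.62, adjusted p = 0.0253). Without siControl library 27 the estimate of RPL39 was -0.15 (adjusted p = 0.634), and without siControl library 22 that of RPL36A was -0.23 (adjusted p = 0.581). In RPL39 93.8% and in RPL36A 49.2% of the 50-base stretches occur elsewhere in the genome. RPL36A also shares 8.40% of its exonic bases with other genes on its strand, a read-through gene among them. Whether this lowered the counts of RPL36A and RPL39 was not tested.

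**Figure D2:**
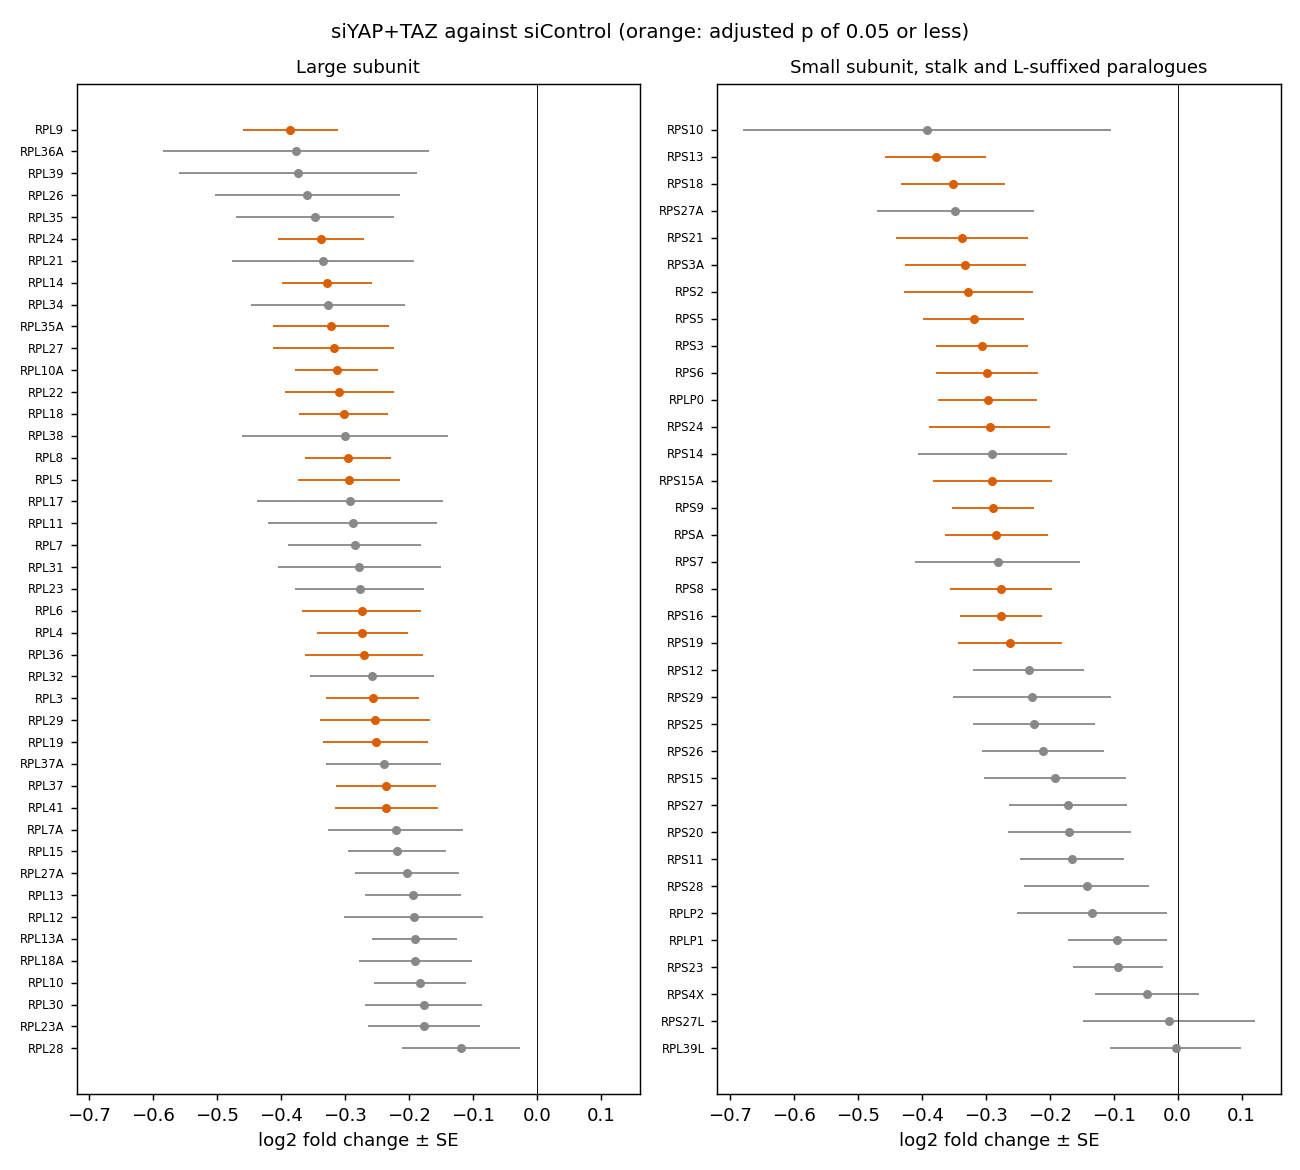
Log2 fold change ± SE (horizontal axis) of each of 78 members in siYAP+TAZ against siControl, for the large subunit (left) and for the small subunit, stalk and L-suffixed paralogues (right). Orange genes passed an adjusted p of 0.05. The estimates drawn run from -0.39 in RPS10 to -0.0031 in RPL39L, and genes with wide error bars such as RPS10, RPL36A and RPL39 are grey although their estimates are among the lowest.

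The stalk of the large subunit recruits the translation factors that hydrolyse GTP, and it is built of RPLP0 with pairs of RPLP1 and RPLP2. RPLP0 was at 39744, 37972 and 41408 normalized counts in siControl and 32319, 31469.9 and 33178 in siYAP+TAZ, with no overlap, and fell by 18.6% (log2 fold change -0.30 ± 0.077 (SE), adjusted p = 0.0107). RPLP1 was at 8776, 8672 and 9912 and 8939, 8233 and 8459.8 (log2 fold change -0.094 ± 0.077 (SE), adjusted p = 0.457), and RPLP2 at 6535, 6119 and 7426 and 6623, 5775 and 5899.5 (log2 fold change -0.13 ± 0.12 (SE), adjusted p = 0.492). The groups of RPLP1 and RPLP2 overlapped. Whether RPLP0 differed from RPLP1 and RPLP2 in its change was not tested.

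The L-suffixed paralogues are copies of ribosomal protein genes with their own loci. RPL39L (chr3:187120948-187180908, minus strand), a paralogue of RPL39 best known from male germ cells and cancer cells, was at 359, 325 and 373 normalized counts in siControl, 372, 396 and 384 in siYAP, 432, 414 and 434 in siTAZ and 391, 348 and 318 in siYAP+TAZ. Its siTAZ libraries were above every siControl library, but the difference did not pass the test (log2 fold change 0.28 ± 0.10 (SE), adjusted p = 0.174), and siYAP+TAZ overlapped siControl (log2 fold change -0.0031 ± 0.10 (SE), adjusted p = 0.990). RPS27L, a paralogue of RPS27 and a known p53 target, was at 371, 379 and 534 in siControl and 407, 375 and 485 in siYAP+TAZ, again with overlap (log2 fold change -0.014 ± 0.13 (SE), adjusted p = 0.961). RPL3L, known from heart and skeletal muscle, had at most 7 raw counts in any library, so no fold change is given. RPL10L was not analysed here.

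**Figure D3:**
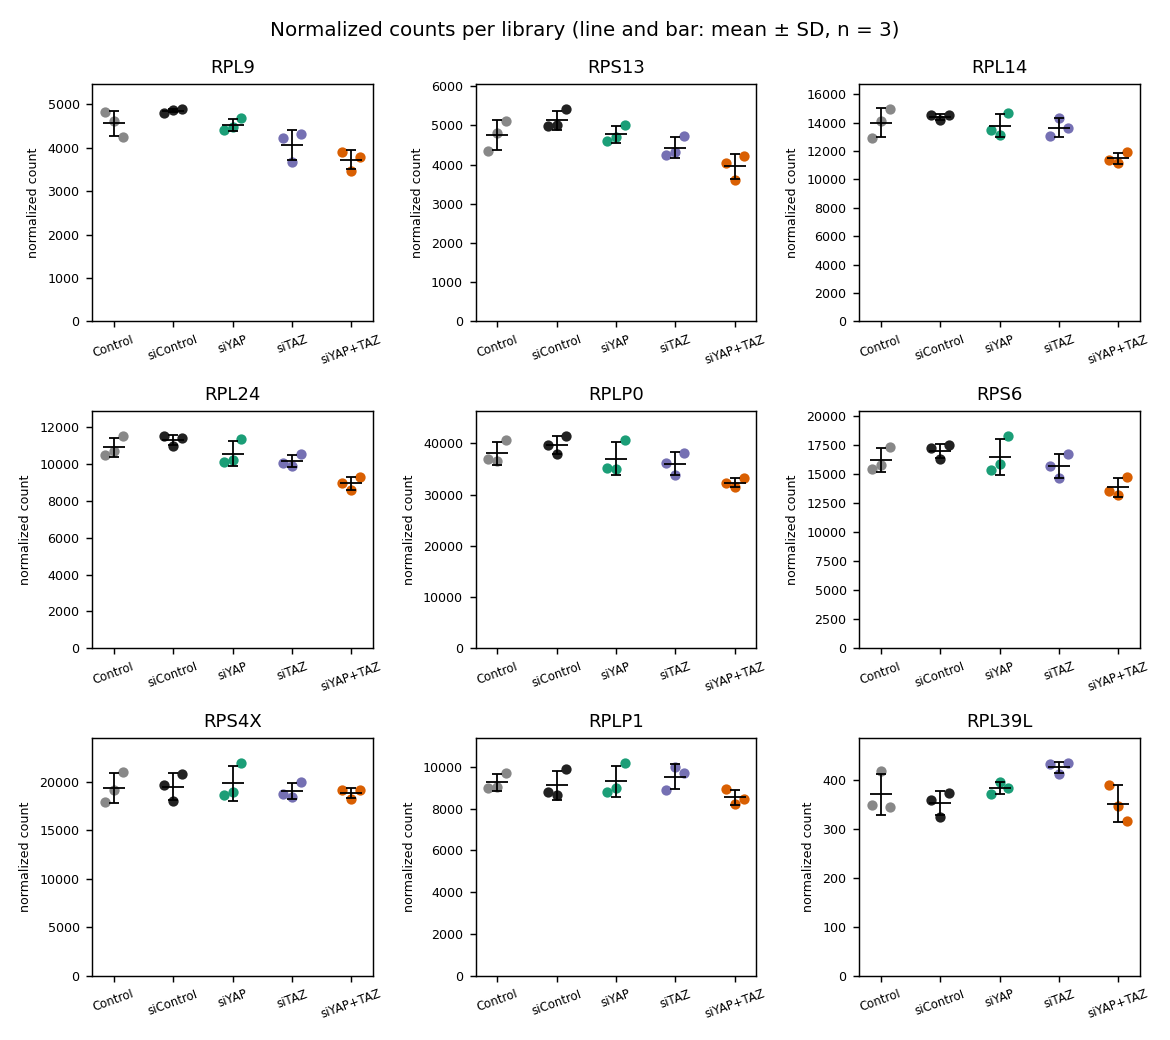
Normalized counts (vertical axes, starting at 0) of 9 members in each library of the 5 groups (horizontal axes), with the mean ± SD of 3 libraries per group. The siYAP+TAZ points of RPL9, RPS13, RPL14, RPL24, RPLP0 and RPS6 lie below all siControl points, while those of RPS4X, RPLP1 and RPL39L overlap them.

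With all 15 libraries and no block, edgeR called 0 members in each single knockdown. In siYAP against siControl, 0 of 80 members were called in either direction, with 0.456% of all genes called lower. An unadjusted p under 0.05 was found in 0 members and in 2241 of all 18858 genes. DESeq2 and limma-voom also called 0, and the count stayed at 0 without siYAP library 23 and with the block. The median log2 fold change was -0.055, beside 0.0025 for all genes, and 66 estimates were negative. This median depended on single libraries, since it lay between -0.13 (without siYAP library 28) and -0.0091 (without siControl library 27) when 1 library was left out. Among the most negative estimates were those of RPS10 (-0.19), RPS9 (-0.13), RPS14 (-0.13) and RPL35 (-0.11). Among the 79 members with enough counts, the largest were those of RPS27L (0.14), RPL39L (0.12), RPS25 (0.061), RPS23 (0.039) and RPS12 (0.034), and the smallest adjusted p of all members was 0.448.

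In siTAZ against siControl, 0 members were called by edgeR, with 0.695% of all genes called lower. An unadjusted p under 0.05 was found in 11 of the 80 members and in 3023 of all 18858 genes. DESeq2 called 2 members lower, RPL9 among them, with 1.62% of all genes called lower, and limma-voom called 0. The median was -0.11 (all genes 0), and 72 estimates were negative. When 1 library was left out, this median lay between -0.15 (without siTAZ library 29) and -0.058 (without siControl library 27). Without siTAZ library 19, 2 members were called, RPL22 among them. With the block by library numbers, edgeR called 8 members and 4.26% of all genes lower in siTAZ, and RPL9 (adjusted p = 0.00770) and RPS13 (adjusted p = 0.0183) were among the 8. RPL9 was at 4213, 3663 and 4316 normalized counts in siTAZ, all below the siControl libraries (log2 fold change -0.26 ± 0.074 (SE), adjusted p = 0.0777). RPS10, RPL36A and RPL39 had estimates of -0.54, -0.46 and -0.27 with adjusted p-values of 0.395, 0.291 and 0.525. At the other end, RPLP2 was at 6242, 8637 and 7325 and RPLP1 at 8869, 9998 and 9725, and neither passed (log2 fold changes 0.14 and 0.063, adjusted p = 0.607 and 0.759). RPS15 and RPL28 were at 0.0094 and 0.0056 (adjusted p = 0.981 and 0.986).

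Transfection itself was compared in siControl and Control. With edgeR 0 members were called and 0 of all 18858 genes passed (0% of the table). An unadjusted p under 0.05 was found in 0 members and in 398 of all genes, and DESeq2 and limma-voom also called 0 members. The members' median was 0.052, beside 0.0030 for all genes, with 73 positive estimates. The median fell to -3.95e-05 without Control library 16 and was 0.11 without Control library 26, and it was also near 0 without siControl library 27. Among 462 other coding genes with a mean of at least 100 counts and a transcript under 1000 bases, a group chosen after the data had been seen, it was 0.041, with 344 positive estimates.

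The comparisons of siYAP+TAZ with the single knockdowns share the siYAP+TAZ libraries with the main comparison. Against siYAP, 4 members were called lower, RPL9 (-0.28, adjusted p = 0.0323), RPL14 (-0.26, 0.0370), RPL10A (-0.26, 0.0246) and RPL24 (-0.24, 0.0466), where 1.7% of all genes were called lower. These 4 are all large subunit genes, and the median over the members was -0.21. Their count was 0 without siYAP library 18, siYAP library 28, siYAP+TAZ library 20 or siYAP+TAZ library 25, and 2 without siYAP library 23 or siYAP+TAZ library 30. DESeq2 called 11 members lower against siYAP, with 2.56% of all genes, and edgeR with the block by library numbers called 45, with 6.03% of all genes. Against siTAZ, RPL14 alone was called by edgeR without the block (-0.25 ± 0.071, adjusted p = 0.0457), with 2.38% of all genes called lower and a median of -0.16. RPL14 had 13481, 13142 and 14674 normalized counts in siYAP, 13025, 14323 and 13597 in siTAZ, 12928, 14089 and 14947 in Control and 11351, 11159 and 11923 in siYAP+TAZ. Its siYAP+TAZ libraries were below both single knockdowns, but the count against siTAZ was 0 without any 1 of libraries 20, 24, 25, 29 or 30. It was 3 with DESeq2, which called 3.11% of all genes lower, and 22 with the block, which called 7.45%.

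Whether the co-knockdown departed from the sum of the single effects was tested by the interaction of siYAP and siTAZ on the log2 scale. With edgeR 0 members and 0.0106% of all genes were called. An unadjusted p under 0.05 was found in 2 of the 80 members and in 1104 of all 18858 genes. DESeq2 and limma-voom called 0 members. The median interaction was -0.099 (all genes -0.0043), with 74 negative estimates and a median SE of 0.13. The same 462 short coding genes had a median interaction of -0.10, with 341 negative estimates.

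The members together took from 3.01% to 3.94% of the counts of a library. Their share was 3.66%, 3.49% and 3.74% in siControl. It was 3.19%, 3.01% and 3.21% in siYAP+TAZ. The siYAP+TAZ shares were below those of all other libraries, of which the lowest was 3.34% in siTAZ. The highest share, 3.94%, was that of siYAP library 28. A share is relative to all counted RNA, and in bulk samples fewer cells of a type and less RNA per cell cannot be told apart.

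The level of the family was also compared library by library. The median log2 level of 79 members relative to their siControl mean was -0.035, -0.059 and 0.083 in the siControl libraries, and -0.25, -0.34 and -0.21 in the siYAP+TAZ libraries. It was -0.16, -0.070 and 0.065 in Control, -0.135, -0.125 and 0.094 in siYAP, and -0.16, -0.14 and -0.022 in siTAZ. In every group the highest value came from the library numbered 26 to 30, and Control library 16 and siTAZ library 19 lay nearest to the siYAP+TAZ range. The labels do not call these numbers a batch. Between libraries of the same run of numbers, siYAP+TAZ was lower than siControl by a median of -0.21 in libraries 20 and 17, -0.28 in libraries 25 and 22 and -0.30 in libraries 30 and 27 on the log2 scale, with 70, 77 and 79 of 79 members lower.

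**Figure D4:**
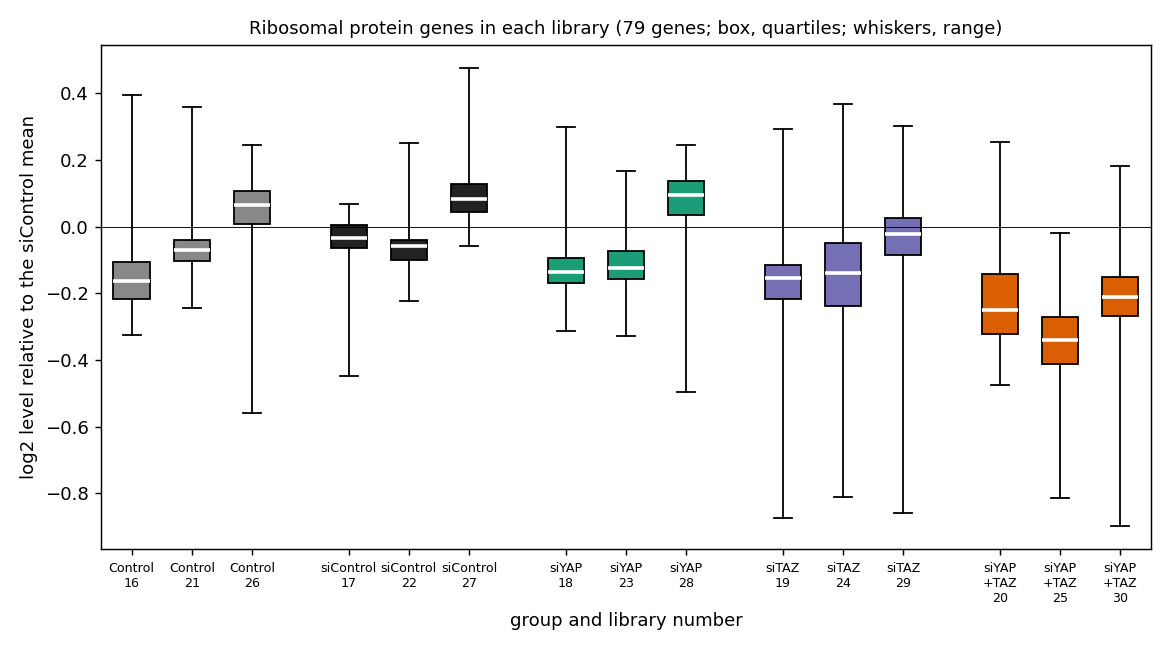
Log2 level of 79 members relative to their siControl mean (vertical axis) in each library (horizontal axis, group and library number). Boxes show quartiles, white lines medians and whiskers the range. The siYAP+TAZ medians of -0.25, -0.34 and -0.21 are the lowest of the 15 libraries, and libraries 26 to 30 are the highest of their groups.

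Levels between genes were compared per kilobase of the canonical transcript. The highest were RPS2 (45022 normalized counts per kilobase), RPL8 (35204), RPLP0 (33149.6), RPS15 (30748) and RPL35 (29793), and the lowest were RPL3L (1.15), RPS27L (71.9) and RPL36A (133). These levels were not corrected for stretches that also occur elsewhere in the genome. The canonical transcripts of RPS27L, RPL14 and RPL37 are listed with 6110, 7136 and 7573 bases, beside a median of 827 for the family, and whether these cells use such long forms was not tested. Across 79 members the log2 fold change in siYAP+TAZ had a Pearson r of -0.042 with the log2 level per kilobase, 0.26 with transcript length and -0.25 with the percentage of 50-base stretches found elsewhere in the genome. These correlations are descriptions across genes, which share their libraries and are not independent.

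Reads that match several places could move between a gene and its copies. Of the 50-base stretches of a member's transcript, a median of 30.1% occurred elsewhere in the genome (range 0 to 100%). In the 24 members with under 10%, 11 were called lower in siYAP+TAZ and the median log2 fold change was -0.28, and in the other 56 members 24 were called and the median was -0.28. The 34 members whose exons overlap no other gene on either strand had 18 calls and a median of -0.28. A strand setting of the counting is not given in the sources used here. The rows of 103 ribosomal protein pseudogenes held from 0.013% to 0.016% of the counts, with 1 called lower, 1 called higher and a median log2 fold change of -0.26.

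The start of the transcripts is shown because the TOP motif is the sequence feature for which the family is best known. RefSeq promoter entries on GRCh38.p14 were matched by symbol for 63 of the 80 members. The annotated start was a C followed by at least 4 further C or T in 42 of the 63 (66.7%), against 4.07% of 35116 promoters. The windows below give 10 bases before the start and 20 from it, 5′ to 3′, with the run of C and T from the start in capitals. RPS13, RPL14, RPL24, RPLP0 and RPS6 were called lower and have the run, RPS23 and RPLP1 have it and were not called, RPL9 was called and has none at the annotated start, and RPS4X and RPS27L have none and were not called.
RPS13 (chr11:17077648-17077677, minus strand): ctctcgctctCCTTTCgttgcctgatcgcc
RPL14 (chr3:40457329-40457358, plus strand): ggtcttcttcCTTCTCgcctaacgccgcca
RPL24 (chr3:101686699-101686728, minus strand): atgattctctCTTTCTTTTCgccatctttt
RPLP0 (chr12:120201092-120201121, minus strand): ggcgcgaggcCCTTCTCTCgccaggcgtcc
RPS6 (chr9:19380217-19380246, minus strand): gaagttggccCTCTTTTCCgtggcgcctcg
RPS23 (chr5:82278335-82278364, minus strand): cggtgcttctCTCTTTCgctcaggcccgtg
RPLP1 (chr15:69452808-69452837, plus strand): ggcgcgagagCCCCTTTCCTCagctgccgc
RPL9 (chr4:39458903-39458932, minus strand): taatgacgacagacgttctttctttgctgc
RPS4X (chrX:72277229-72277258, minus strand): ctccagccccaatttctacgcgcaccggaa
RPS27L (chr15:63157458-63157487, minus strand): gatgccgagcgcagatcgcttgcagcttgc

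In siYAP+TAZ, 20 of the 42 members with the run were called lower (median -0.29), as were 7 of the 21 with another annotated start (median -0.26), and the difference was not tested. The windows of RPL9 and RPS4X hold stretches of C and T near the annotated start but not at it, and the starts used in these cells were not measured. Of 3 motifs searched on both strands in the 300 bases around the start, CCGGAAG, a core of ETS factor sites, was in 22 of 63 members (34.9%) and in 10.3% of all promoters. AAGATGGC, a core of YY1 sites, was in 6 (9.52%, against 2.89%), and TATAAA, the TATA box, in 5 (7.94%, against 11.5%). A match of letters is a description and shows no binding.

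Genes that work beside the ribosome were taken from lists. Among the 7 ribosomal proteins or paralogues whose symbols the rule did not match, 3 were called lower in siYAP+TAZ, where 8.39% of all genes were. RPL22L1, a paralogue of RPL22, fell from 693 ± 35.9 to 449 ± 43.7 normalized counts (mean ± SD, n = 3; log2 fold change -0.62 ± 0.090 (SE), adjusted p = 9.61e-05) and was also called in siTAZ (-0.41, adjusted p = 0.0207). RPL7L1, which acts in assembly of the large subunit, and RACK1, a signalling scaffold on the small subunit, fell as well (-0.32 and -0.25, adjusted p = 0.00399 and 0.0320). FAU, whose product is a ribosomal protein fused to a ubiquitin-like protein, had an estimate of -0.17 (adjusted p = 0.245).

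Of 17 translation factors and other genes known for TOP mRNAs, 9 were called lower, all 17 estimates were negative and the median was -0.25. NPM1, a chaperone of ribosome assembly, fell from 34584 ± 840.1 to 24951 ± 2011 (log2 fold change -0.47 ± 0.083 (SE), adjusted p = 0.000598), and the elongation factors EEF1D (-0.44, adjusted p = 0.00943), EEF1B2 (-0.32, 0.00119) and EEF2 (-0.29, 0.0122) fell. TPT1, also a TOP mRNA, was at -0.00065 (adjusted p = 0.997). Of 13 host genes of small nucleolar RNAs, which guide the modification of rRNA, 8 were called lower with a median of -0.44. SNHG1 (log2 fold change -0.73 ± 0.12 (SE), adjusted p = 0.000512) and SNHG7 (log2 fold change -0.57 ± 0.084 (SE), adjusted p = 0.000127) were lowest among those called, and in siTAZ 3 hosts were called lower, SNHG1 (-0.50), SNHG7 (-0.43) and ZFAS1 (-0.60). Whether these lists changed more or less than the ribosomal protein genes was not tested. Of all genes, 8.39% were called lower in siYAP+TAZ and 0.695% in siTAZ.

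Of 77 mitochondrial ribosomal protein genes, whose products form a separate ribosome, 15 were called lower and 0 higher, with a median of -0.21. Among 13 genes that control the translation of TOP mRNAs, 2 were called lower and 1 higher (median -0.12), and these are small counts near the 8.39% and 9.97% of all genes. LARP1, which binds the TOP motif, fell (log2 fold change -0.36 ± 0.070 (SE), adjusted p = 0.00141), as did RHEB, the GTPase that activates mTORC1 (-0.27, adjusted p = 0.0282). DDIT4, an inhibitor of mTORC1, rose from 378 ± 183 to 917 ± 119 normalized counts (log2 fold change 1.27 ± 0.38 (SE), adjusted p = 0.0395). MTOR itself was at -0.12 (adjusted p = 0.371) and RPTOR at 0.31 (adjusted p = 0.0706).

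**Figure D5:**
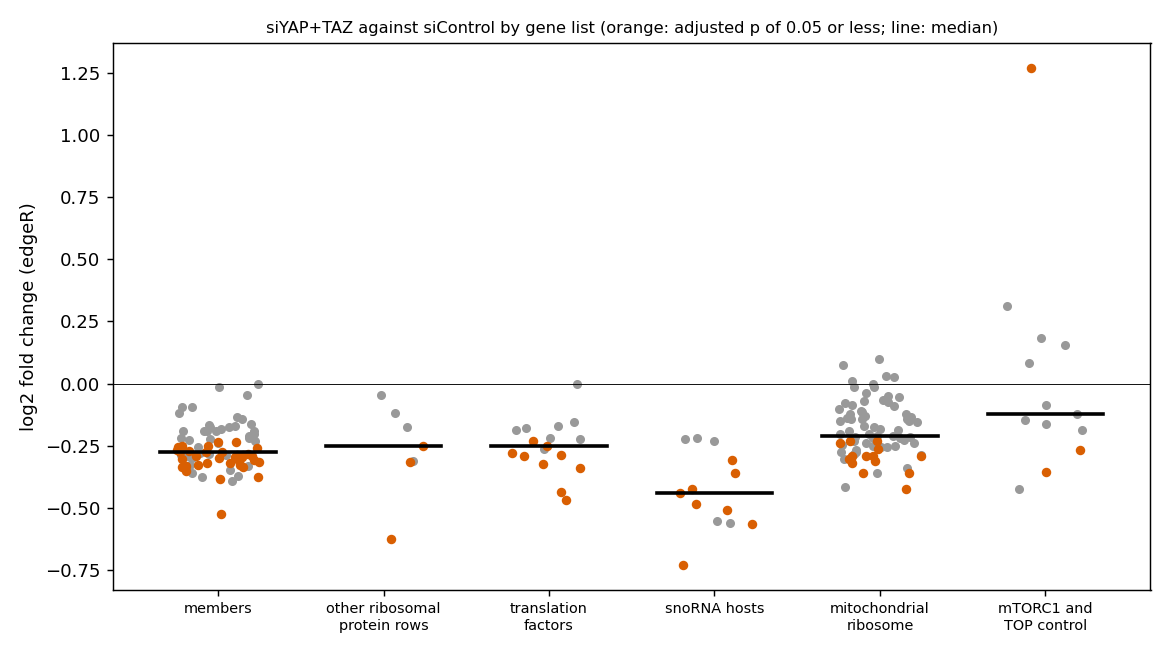
Log2 fold changes in siYAP+TAZ against siControl (vertical axis) of the 79 members and of 5 lists of other genes (horizontal axis). Orange points passed an adjusted p of 0.05 and lines are medians, which were -0.28 for the members, -0.25 for the translation factors, -0.44 for the hosts of small nucleolar RNAs and -0.21 for the mitochondrial ribosome. DDIT4, at 1.27, is the only orange point above 0.

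Coding genes of like length or level were set beside the family, in groups chosen after the data had been seen. Among the 462 other coding genes with a mean of at least 100 counts and a transcript under 1000 bases, 44 were called lower and 43 higher, and the median was -0.051. Among 422 other coding genes above the median level of the members, 108 were called lower and 46 higher, with a median of -0.10. The list of invadopodia-related proteins that the study compiled from the literature matched 583 genes of the table by symbol, and 34 of these are members. Of the 108 genes of that list called lower in siYAP+TAZ, 20 were ribosomal protein genes, and among its 549 other genes 88 were called lower and 80 higher.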

How the data were processed

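RNA of 15 libraries of MDA-MB-231 cells was analysed, 3 for each of 5 groups assigned from the sample labels. The authors purified poly(A) RNA from 500 ng of total RNA, sequenced single reads, aligned them to GRCh38 with STAR 2.4.2a and deposited raw counts per gene. Beside these, the authors deposited a signal (counts divided by DESeq2 size factors), log2 values after rlog and columns with their own comparisons (log2 fold changes and p-values). None of these was used. Here, raw counts of all 18858 genes were normalized by TMM and tested with the quasi-likelihood test of edgeR 4.0.16 in R 4.3.3 (robust, 1 coefficient per group, all 15 libraries), with Benjamini-Hochberg adjustment over all genes. Every gene reached 5 reads in at least 1 library. A gene was called at an adjusted p of 0.05 or less. TMM factors lay between 0.943 and 1.03. DESeq2 1.42.0, limma-voom 3.58.1, other scalings and filters, a block and left-out libraries were alternatives, and the tests were tried on simulated data first. Genes named were the 5 highest and 5 lowest estimates of each knockdown, the highest and lowest levels per kilobase and members with a set role. RPL4, RPL10A, RPL14, RPL18, RPL22, RPL24, RPL37, RPS3, RPS16 and RPS18 were named after their values had been seen. RPL3, RPL10 and RPS27 were named as parents of the paralogues. Gene-level values of 1 member and 1 listed gene are not reported here, though both are in the counts. The members and lists were chosen with earlier results of these data known. Gene positions came from GENCODE release 44 and start windows from RefSeq.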

Additional observations from a re-analysis of the deposited data

How the results depend on the processing

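In siYAP+TAZ against siControl, the count of ribosomal protein genes called lower was 28 with library size only, 30 with DESeq2 size factors, 32 with TMM factors computed without the family, 34 with edgeR's filterByExpr, 35 with DESeq2, 36 with limma-voom and 43 with only the compared groups in the fit. It was 21 with Control as the reference and from 14 to 31 without 1 library. Called genes numbered 13 in all 16 settings. The median log2 fold change lay between -0.30 and -0.22 in every setting. In siTAZ, DESeq2 called 2, and leaving out 1 library gave 0 to 2. Against siYAP, siYAP+TAZ gave 11 calls with DESeq2, 7 with limma-voom, 8 with library size only, 8 with filterByExpr, 2 with only the compared groups and 0 to 2 without 1 library. Against siTAZ it gave 3 with DESeq2, 2 with limma-voom, 0 with library size only, 0 with only the compared groups and 0 to 1 without 1 library. The counts of siYAP, of siControl against Control and of the interaction were 0 in every setting tried, and the fall of the members' share of counts from siControl to siYAP+TAZ kept its size. The causes of these differences were not tested. Shares of all genes called lower are given here only for the main fit, DESeq2, Control as the reference and the block. For the other settings and the left-out libraries, whether calls over all genes moved alike was not compared.

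When libraries 16 to 20, 21 to 25 and 26 to 30 were each taken as a replicate block, which is not a pairing the labels give, siYAP+TAZ gave 61 calls against siControl (14% of all genes called lower), 45 against siYAP (6.03%) and 22 against siTAZ (7.45%), and siTAZ gave 8 against siControl (4.26%). With 3 libraries per group, the members' median SE was 0.091 on the log2 scale in siYAP+TAZ against siControl.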
